A study of Mus musculus with 4 samples.

Results

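Aminoacyl-tRNA synthetases are the enzymes that attach each amino acid to its own transfer RNA before the ribosome can use it. Animal cells hold a cytosolic set, which charges tRNAs for proteins encoded in the nucleus, and a mitochondrial set, encoded by separate nuclear genes, which charges tRNAs for the few proteins made inside mitochondria. The enzymes fall into class I and class II by the fold of their catalytic domain, and several cytosolic members sit together with scaffold proteins in the multisynthetase complex. Skeletal muscle depends on both sets, since its contractile proteins turn over continuously and its fibers are rich in mitochondria. The members described here are 36 genes taken by symbol from a table of 24054 genes, 20 of them cytosolic (Aars to Yars) and 16 mitochondrial (symbols ending in 2). Gars and Kars, listed as cytosolic, each encode the cytosolic and the mitochondrial form of their enzyme, and Eprs encodes a single protein that charges both glutamate and proline tRNAs.

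The muscles were solei of female *mdx* mice, which lack dystrophin in every group, infused monthly through the femoral vein from 8 weeks of age and taken at the 12-month endpoint. One group received mouse cardiosphere-derived cells (mCDCs, cardiac stromal cells at passage 5, grown from the heart of a single mouse without the dystrophin mutation) and the other received the medium alone (vehicle). Each group had 2 libraries from bulk RNA, so that fewer cells of a type and less RNA per cell cannot be told apart. Library totals ran from 22481391 to 27187425 expected counts. All 12 skeletal muscle markers examined were present in every library, from 3241 to 47467 CPM (counts relative to the TMM-adjusted size of each library), with the slow-fiber myosin Myh7 and the skeletal actin Acta1 highest.

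All 36 synthetases were measured well enough to test. Their expected counts ran from 75.95 for Wars2 in one library to 10911 for Eprs in another, and 35 of the 36 had more than 100 counts in every library. To ask whether repeated mCDC dosing went with other synthetase levels, edgeR's quasi-likelihood test was fitted to 13652 genes. Genes past 1.5-fold whose p before adjustment was under 0.05, which are the study's own limits, are referred to as called. No synthetase was called in either direction, where 1.26% of all genes tested were called higher and 2.74% lower (172 and 374 genes, or 209 and 288 with a length and GC trend removed). At an unadjusted p under 0.05 alone, 1 member was reached with edgeR and 0 with DESeq2, beside 6.94% of all genes tested with edgeR. The lowest adjusted p among the members was 0.705 with edgeR. Of all 13652 genes in that edgeR test, 0 had an adjusted p under 0.05, and the smallest was 0.200.

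Although no member was called, most log2 fold changes lay slightly above 0. Of the 36 genes, 31 were above 0 and 5 below, a share of 86.1%, where 48.4% of all genes tested were above 0. The median log2 fold change was 0.19 over the cytosolic set, 0.16 over the mitochondrial set and -0.0094 over all genes tested. In linear terms these medians are 1.14-fold and 1.12-fold. In 21 of the 36 genes both mCDC libraries lay above both vehicle libraries, and in none did both lie below. Over all genes tested, 19.2% had both mCDC libraries above and 19.4% both below. These counts depend on the scaling. When libraries were instead brought to the same sum of counts per kilobase, the median of all genes moved by -0.12 on the log2 scale, 24 members were above 0, 6 had both mCDC libraries above (Aars, Farsa, Mars, Sars2, Tars2 and Yars2) and 5 had both below, where 28% of all genes were above 0, 7.29% had both above and 33.5% had both below. Relative to the median of all genes, 31 members were higher under either scaling. The genes of each list share the same 4 muscles, so these counts are descriptions of 4 libraries and not 36 independent observations. For 1 gene taken by itself, the smallest p that an exact permutation of 2 against 2 libraries allows is 0.33, two-sided.

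A single library often stood highest. mCDC replicate 2 had the highest CPM of the 4 libraries for 27 of the 36 members, against 6 for mCDC replicate 1, 2 for vehicle replicate 1 and 1 for vehicle replicate 2. Over all genes tested, mCDC replicate 2 was highest for 28.1%. With libraries scaled to the same sum of counts per kilobase it was highest for 18 members and vehicle replicate 1 for 13, where over all genes these libraries were highest for 17.8% and 39.5%. Vehicle replicate 2 was the lowest for 19 members and vehicle replicate 1 for 11. Relative to each gene's mean of the 4 libraries, the median cytosolic member stood at 0.02 and 0.15 on the log2 scale in mCDC replicates 1 and 2, and at -0.07 and -0.10 in vehicle replicates 1 and 2. For the mitochondrial set the same medians were 0.06, 0.12, -0.02 and -0.08. Without mCDC replicate 2 the median log2 fold change was 0.12 for the cytosolic set and 0.11 for the mitochondrial set. Without vehicle replicate 2 the medians were 0.17 and 0.11.

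**Figure D1:**
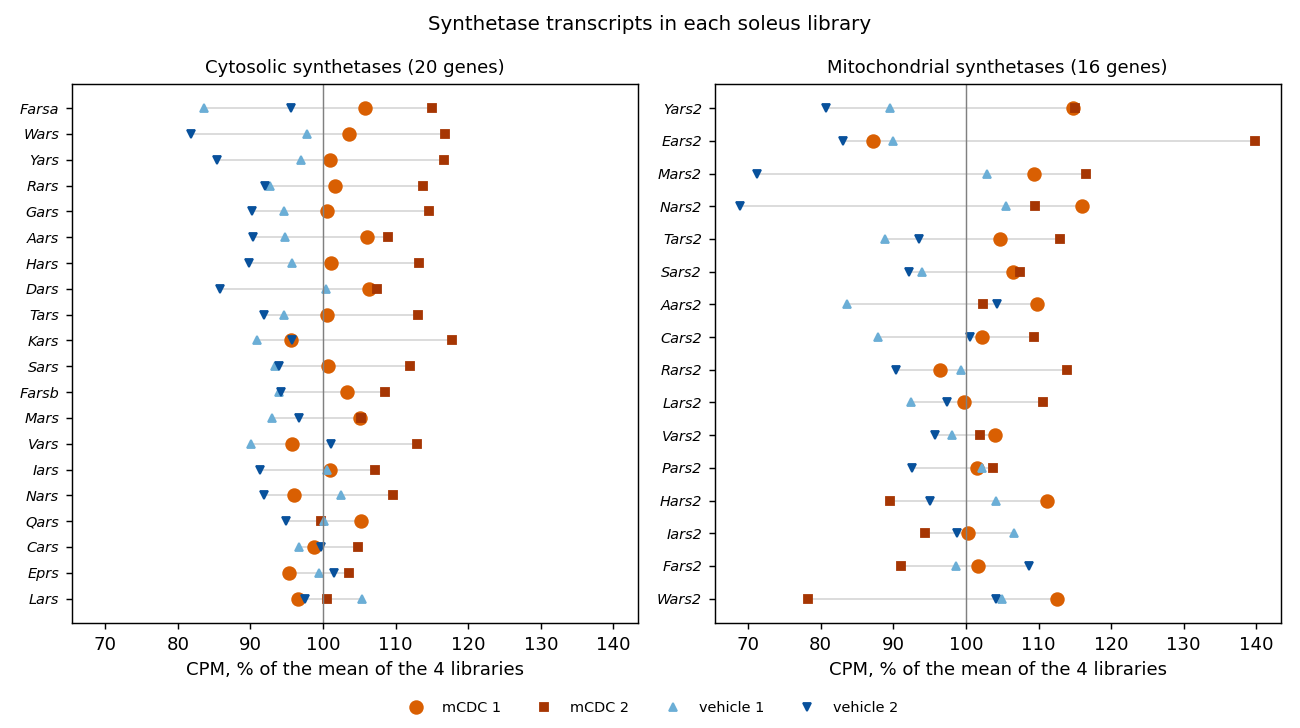
CPM of each cytosolic (left) and mitochondrial (right) synthetase in the 4 libraries, as a percentage of that gene's mean over the 4 (x axis); each symbol is 1 library and genes are ordered by fold change. mCDC replicate 2 is the rightmost point for 27 of the 36 genes, and both mCDC points lie right of both vehicle points for 21. With libraries scaled to the same sum of counts per kilobase these counts are 18 and 6. On that scale both mCDC values lie below both vehicle values for 5 genes.

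Among cytosolic members, those with the highest fold changes were Farsa, Wars, Yars and Rars. Farsa, the catalytic subunit of phenylalanyl-tRNA synthetase, had 24.6 and 26.8 CPM in the mCDC muscles (replicate 1, then 2, here and for all values given in pairs) against 19.5 and 22.2 in the vehicle muscles, for a log2 fold change of 0.30 (standard error 0.16, edgeR adjusted p = 0.735). Its partner subunit Farsb had 50.4 and 52.9 CPM against 45.8 and 46.0. Both subunits were therefore higher in each mCDC muscle than in each vehicle muscle, without passing the test. Wars, which charges tryptophan tRNA and is known as an interferon-inducible gene, had 47.7 and 53.8 CPM against 45.1 and 37.7, a log2 fold change of 0.29 (standard error 0.15, edgeR adjusted p = 0.735). Yars, the tyrosine enzyme, had 49.0 and 56.6 CPM against 47.1 and 41.5. For Wars and Yars vehicle replicate 2 was the low library, and the nearest mCDC and vehicle values lay close together. Rars, the arginine enzyme and a member of the multisynthetase complex, had 66.6 and 74.5 CPM against 60.7 and 60.2.

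Aars, Gars and Tars charge alanine, glycine and threonine tRNAs. Aars had 208 and 214 CPM against 186 and 177, a log2 fold change of 0.22 (standard error 0.13, edgeR adjusted p = 0.747). Of the 36 synthetases its standard error was the lowest, but 13.9% of its 31-base words also occur in other genes, first among them Exosc6, which overlaps it on the same strand. Gars had 104 and 118 CPM against 97.5 and 92.9, and Tars had 60.0 and 67.5 against 56.5 and 54.8. In all 3 genes the mCDC values were above the vehicle values, and for Gars and Tars most of the distance was in mCDC replicate 2. Gars sits at chr6:55038007-55079500 on the plus strand and Tars at chr15:11382301-11399665 on the minus strand of GRCm38 (GENCODE M21), and mutations in GARS cause an inherited neuropathy in people.

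Many cytosolic synthetase genes are known targets of ATF4, the transcription factor of the amino acid response, which binds a composite element with the core TGATGNAA. The 250 bases before the transcription start were searched on both strands for these letters, with RefSeq promoters on GRCm38.p6. A promoter was in the table for 28 of the 36 members, and 3 of them held a match (10.7%), where 3.91% of 27025 genes did. The matches of Gars and Tars are shown because these members are described above, with capitals marking the match, which reads as TTNCATCA along the gene.
Gars, chr6:55037960-55037989, plus strand: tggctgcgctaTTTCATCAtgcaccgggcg
Tars, chr15:11399659-11399684, minus strand: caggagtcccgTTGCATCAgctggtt
They begin 30 and 15 bases before the RefSeq start and differ only at the open position of the motif. No occupancy of these sites was measured.

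Sars, Hars, Dars, Mars and Iars completed the cytosolic members whose groups did not overlap. Sars, the serine enzyme, had 163 and 182 CPM against 151 and 152, and Hars, the histidine enzyme, had 59.2 and 66.2 against 56.0 and 52.5. Dars had 76.9 and 77.7 CPM against 72.6 and 62.0, with vehicle replicate 2 lowest. Mars, which supplies methionine also for the start of each protein, had 68.1 and 68.2 CPM against 60.2 and 62.6. Iars had 102 and 108 CPM against 101 and 92.1, so mCDC replicate 1 and vehicle replicate 1 were all but equal. Log2 fold changes of these 5 genes lay between 0.12 and 0.21. Without vehicle replicate 2 Dars was at 0.089 and Iars at 0.049, and without mCDC replicate 2 Hars was at 0.13 and Sars at 0.10. Iars shares 14.7% of its 31-base words with other genes, first among them Gm4849.

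Kars, Nars, Vars, Qars, Cars, Eprs and Lars overlapped between the groups. Kars, the lysine enzyme, had 151 and 186 CPM against 144 and 151, so that its log2 fold change of 0.19 rested on mCDC replicate 2 and was 0.036 without it. Eprs had 373 and 405 CPM against 389 and 397, with both vehicle values inside the range of the mCDC values. Lars, the leucine enzyme and a leucine sensor of the mTORC1 pathway, had 53.4 and 55.6 CPM against 58.3 and 54.0, a log2 fold change of -0.04 (standard error 0.13, edgeR adjusted p = 0.955). These were the 2 cytosolic members below 0. Cars had 62.6 and 66.5 CPM against 61.3 and 63.2, and Qars had 72.8 and 68.9 against 69.3 and 65.6. Log2 fold changes were 0.05 for Cars, 0.07 for Qars, 0.08 for Nars and 0.13 for Vars, which was at 0.0029 without mCDC replicate 2.

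Eprs and Lars belong to the multisynthetase complex, as do Iars, Mars, Qars, Rars, Kars and Dars. Over the 8 complex synthetases the median was 0.13 on the log2 scale, with 6 above 0 and 4 not overlapping between the groups. The 12 cytosolic synthetases outside the complex had a median of 0.20, with 12 above 0 and 9 not overlapping. In these 12 genes mCDC replicate 2 was the highest library in 12. Over all genes tested 48.4% were above 0 and 19.2% had both mCDC libraries above. Libraries were then scaled to the same sum of counts per kilobase. On that scale 4 of the 8 complex genes were above 0, 1 had both mCDC libraries above and 2 had both below. Of the 12 others these counts were 10, 2 and 1, where the shares over all genes were 28%, 7.29% and 33.5%. By catalytic class, the 18 class I members of both compartments had a median of 0.15 and the 17 class II members 0.20, and Eprs, which joins a domain of each class, was left out of both. These differences between subsets were not tested.

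Mitochondrial members were more spread out. Yars2 was the member with the highest log2 fold change, 0.43 (standard error 0.16, 95% interval 0.06 to 0.81, edgeR adjusted p = 0.705), and the only one of the 36 with an interval above 0. It lies at chr16:16302965-16309640 on the plus strand and charges mitochondrial tyrosine tRNA. Both mCDC libraries had 18.2 CPM, and the vehicle libraries had 14.2 and 12.8. At 18.2 ± 0.034 (SD, n = 2) against 13.5 ± 0.98 (SD, n = 2), its groups were set apart by more than the spread within them, and mCDC replicate 2 did not stand out. Its unadjusted p was 0.0295 with edgeR's quasi-likelihood test, 0.0522 with DESeq2 and 0.0559 in edgeR once the length and GC trend was taken out. With one library left out in turn, its log2 fold change ran from 0.36 to 0.51.

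Ears2, Mars2 and Nars2 followed with log2 fold changes of 0.39, 0.38 and 0.37, each set by one library. Ears2, the glutamate enzyme, had 7.95 and 12.7 CPM against 8.20 and 7.57, so that mCDC replicate 2 stood alone and the groups overlapped. Without mCDC replicate 1 it was called, at 0.69 (edgeR adjusted p = 0.491), and without mCDC replicate 2 its log2 fold change was 0.013. Mars2, the methionine enzyme, had 6.82 and 7.26 CPM against 6.41 and 4.44. Nars2, the asparagine enzyme, had 12.9 and 12.2 CPM against 11.8 and 7.68. In both genes vehicle replicate 2 was the low library. Without vehicle replicate 1 both were called, at 0.67 and 0.71, and without vehicle replicate 2 they were at 0.13 and 0.094. Once the length and GC trend was taken out Mars2 was called too, at 0.64 (edgeR adjusted p = 0.727). Nars2 shares 284 exonic bases with C230038L03Rik and Ears2 shares 89 with Ubfd1, both on the opposite strand, and reads there could not be told apart if the counting ignored strand. The same holds for 501 exonic bases of Fars2, 465 of Vars2, 422 of Cars2, 248 of Farsb, 211 of Cars, 77 of Aars, 68 of Mars and 30 of Yars, and for 195 that Hars and Hars2 share with each other.

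Tars2, Sars2, Lars2, Cars2 and Vars2 did not overlap between the groups either. Tars2, the threonine enzyme, had 49.1 and 53.0 CPM against 41.7 and 43.9, a log2 fold change of 0.25 (standard error 0.14, edgeR adjusted p = 0.735). Sars2, the serine enzyme, had 22.7 and 22.9 CPM against 20.1 and 19.7, with replicates that differed by less than 0.3 CPM SD in each group, and a log2 fold change of 0.20. Lars2, the leucine enzyme, had 122 and 135 CPM against 113 and 119. Cars2 had 16.4 and 17.6 CPM against 14.1 and 16.2, and Vars2 had 25.4 and 24.9 against 24.0 and 23.4. Aars2, Rars2 and Pars2 were above 0 with groups that overlapped, at 0.18, 0.15 and 0.07. With one library left out their lowest values were 0.029 without vehicle replicate 1, 0.025 without mCDC replicate 2 and 0.0028 without vehicle replicate 2.

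The lowest mitochondrial members were Wars2, Fars2, Iars2 and Hars2. Wars2, the tryptophan enzyme, had 4.99 and 3.47 CPM against 4.65 and 4.61, a log2 fold change of -0.12 (standard error 0.26). mCDC replicate 2, the high library for most members, was the low one here, and without it the value was 0.11. Fars2, the phenylalanine enzyme, had 26.3 and 23.6 CPM against 25.5 and 28.1, at -0.10. Iars2 had 93.0 and 87.5 CPM against 98.8 and 91.6, at -0.08, and 2034 of its exonic bases lie opposite another annotated gene. Hars2 had 19.0 and 15.3 CPM against 17.9 and 16.3, at 0.01. In these 4 genes mCDC replicate 2 had the lowest CPM of the 4 libraries. The cytosolic partners of all 4 were above 0, with Wars at 0.29, Farsa and Farsb at 0.30 and 0.17, Iars at 0.12 and Hars at 0.21.

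**Figure D2:**
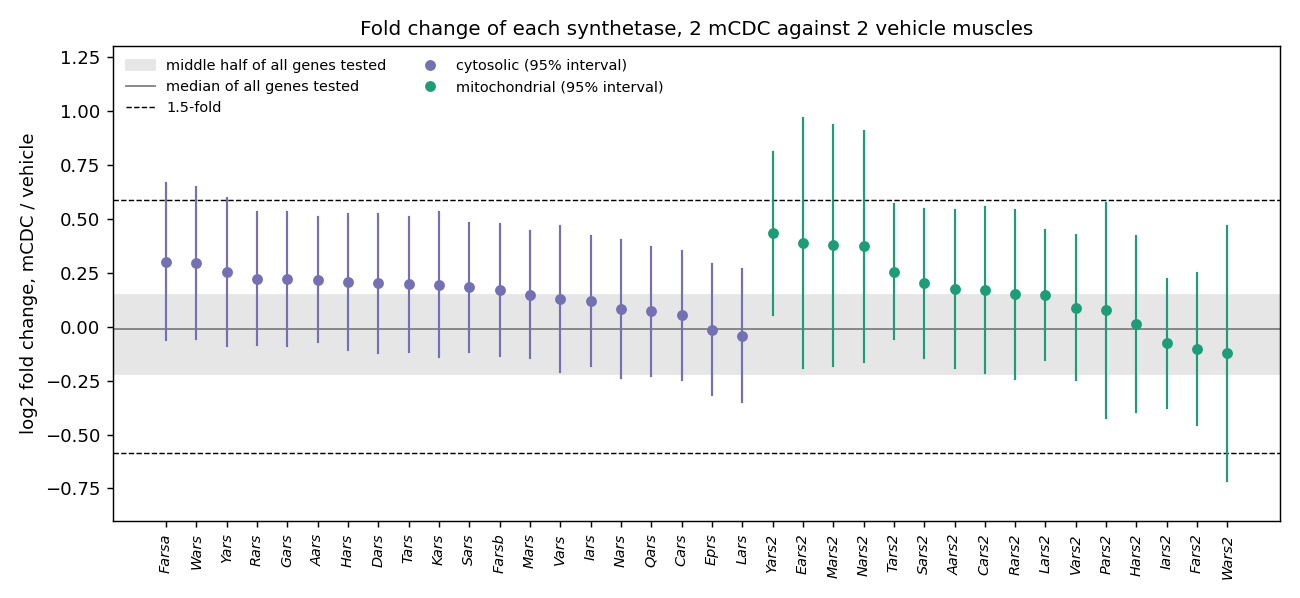
Log2 fold change of each synthetase between 2 mCDC and 2 vehicle muscles (y axis), with points for estimates and lines for 95% intervals, cytosolic genes left and mitochondrial genes right. All 36 points lie inside the dashed 1.5-fold lines; Yars2, at 0.43, is the only interval above 0, and the gray band is the interquartile range of all genes tested (-0.22 to 0.15).

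Of the 36 intervals, 28 lay wholly within a 1.5-fold change in either direction (0.58 on the log2 scale). The intervals of the other 8 reached past it, so that they include a change of that size. Standard errors ran from 0.13 to 0.16 in the cytosolic set and from 0.13 to 0.26 in the mitochondrial set. The medians of the sets differed by 0.03 on the log2 scale, less than the spread between replicates of either set's median (SD 0.07 for the cytosolic and 0.04 for the mitochondrial set). The log2 fold changes themselves varied more among mitochondrial members (SD 0.18) than among cytosolic members (SD 0.093). Counts were also lower in the mitochondrial set, and the part of counting error in that spread was not tested.

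To compare levels between genes, expected counts were divided by transcript length in kilobases and scaled to the same sum in every library, with GENCODE transcript lengths. The median cytosolic member stood at 50.02 and the median mitochondrial member at 18.1 on this scale. Summed over the set, cytosolic synthetases reached 1299 and 1410 in the mCDC muscles and 1375 and 1293 in the vehicle muscles. Mitochondrial synthetases summed to 319, 323, 322 and 315. On this scale, which divides by the summed levels of all genes and not by the trimmed mean of M-values, neither sum separated the groups. Summed CPM did separate them. The cytosolic sums were 2007 and 2197 in the mCDC muscles against 1943 and 1898 in the vehicle muscles. Mitochondrial sums of CPM were 489 and 499 against 455 and 456.

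Eprs had the highest level, at 161 ± 10.1 (SD, n = 4 libraries), followed by Kars at 149 ± 12.8, and these first 2 overlapped between libraries. Sars and Nars came next at 120 ± 5.6 and 116 ± 9.0, and Dars and Gars at 103 ± 8.4 and 87.0 ± 6.0. Each of these neighbors overlapped except Kars and Sars. With the longest transcripts the order after Eprs and Kars was Nars (120.3), Sars (95.8), Gars (91.4), Aars (72.1) and Dars (70.2). Lars2, at 63.1 ± 2.5, was the highest mitochondrial member and stood eighth of 36 by mean level, not apart from its neighbors Aars and Rars. The lowest were Nars2 at 5.92 ± 1.16, Pars2 at 3.93 ± 0.23, Wars2 at 2.03 ± 0.35 and Mars2 at 1.11 ± 0.20. The Mars2 transcript used is 11294 bases long, so its level per kilobase would be higher on a shorter transcript.

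In 14 of 17 pairings of a cytosolic gene with the mitochondrial gene for the same amino acid, the cytosolic transcript was higher in all 4 libraries. Ratios were widest for Mars over Mars2, at 41.0 ± 8.7 (SD, n = 4 libraries), and for Eprs over Pars2, at 40.9 ± 2.8, and with the longest transcripts they were 40.9 and 47.6, in the opposite order. Narrower ratios were found for Iars over Iars2, at 1.35 ± 0.13, and Yars over Yars2, at 1.65 ± 0.15. In leucine the order was the opposite, with Lars at 0.44 ± 0.043 times Lars2, from 0.40 to 0.50 in single libraries, and both lengths were the same when the longest transcript was used. Tars at 0.75 ± 0.033 times Tars2 and Farsa at 0.77 ± 0.14 times Fars2 were also below 1, but these were 1.03 and 1.05 with the longest transcript in place of the median one.

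**Figure D3:**
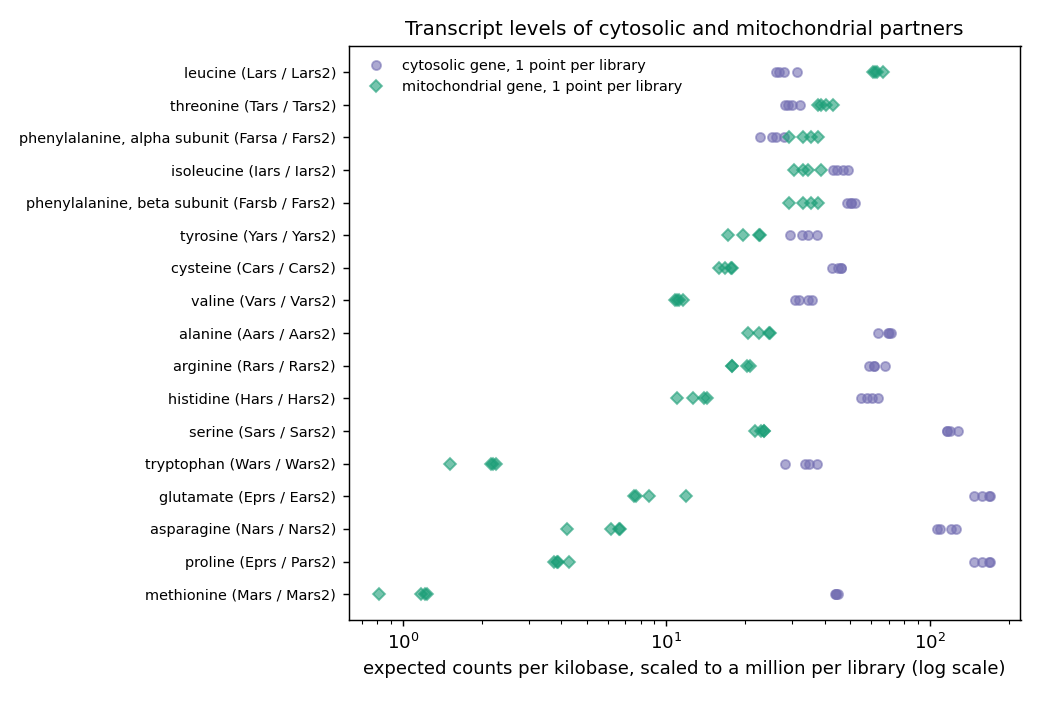
Expected counts per kilobase, scaled to the same sum in every library (x axis, log scale), for each cytosolic synthetase and its mitochondrial partner by amino acid (y axis); each symbol is 1 library, with mCDC and vehicle libraries drawn alike. Partners lie farthest apart for methionine (41.0) and proline (40.9), and the mitochondrial gene is higher for leucine in all 4 libraries.

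Among the other charging, acylation, editing and scaffold genes, the highest fold changes were those of Eef1e1 and Aimp2, scaffold proteins of the multisynthetase complex. Eef1e1, also known as AIMP3 or p18, had 12.95 and 18.5 CPM against 11.03 and 9.57, a log2 fold change of 0.61 (standard error 0.22, edgeR adjusted p = 0.684), and was called higher. Aimp2 had 53.4 and 66.7 CPM against 43.6 and 44.5, a log2 fold change of 0.45 (edgeR adjusted p = 0.683), under the fold needed for a call. Aimp1, the third scaffold protein, had 88.2 and 95.6 CPM against 86.1 and 91.0, at 0.05. In all 3 genes mCDC replicate 2 was the highest library. Eef1e1 was not called without mCDC replicate 2, at 0.33, or without vehicle replicate 2, at 0.51, and Aimp2 was at 0.28 without mCDC replicate 2.

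Other mitochondrial charging genes lay on both sides of 0. Mtfmt, which formylates the initiator methionyl-tRNA, had 7.96 and 8.23 CPM against 9.01 and 8.77, a log2 fold change of -0.14. The glutaminyl-tRNA amidotransferase subunits Qrsl1, Gatc and Pet112 (Gatb) were at 0.23, 0.17 and 0.03. None of these 4 genes, of the 5 other acylation genes (Tarsl2, Trnt1, Thg1l, Sepsecs and Pstk) or of the 4 trans-editing genes (Aarsd1, Dtd1, Dtd2 and Prorsd1) was called with edgeR's quasi-likelihood test, and 0 of these 13 had an unadjusted p under 0.05. The medians of the 3 lists were 0.10, 0.10 and 0.05.

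Genes of the amino acid response were called in both directions. Of 32 listed, 30 were tested, 4 were called higher and 2 lower, beside 1.26% and 2.74% of all genes, and the median was 0.12. Atf4 itself had 281 and 384 CPM against 251 and 271, a log2 fold change of 0.35 (standard error 0.17, edgeR adjusted p = 0.725), and 0.11 without mCDC replicate 2. The stress factor Atf3 had 21.6 and 60.0 CPM against 14.0 and 11.8, at 1.65, and at 0.74 without mCDC replicate 2. Psat1, an enzyme of serine synthesis, had 7.23 and 9.50 CPM against 4.88 and 4.47, at 0.84. Stc2 had 5.95 and 6.17 CPM against 4.20 and 3.38, at 0.68, and Ppp1r15a, a phosphatase subunit that reverses the block on translation, had 54.3 and 97.7 against 49.4 and 42.6, at 0.72, and at 0.24 without mCDC replicate 2. Adjusted p for these 4 called genes lay between 0.567 and 0.684.

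Both of the genes called lower are also known ATF4 targets. Chac1, which degrades glutathione, had 8.10 and 4.98 CPM against 14.4 and 16.8, a log2 fold change of -1.25 (standard error 0.25, edgeR adjusted p = 0.462). Ddit4, an inhibitor of mTORC1, had 6.32 and 6.08 CPM against 27.8 and 12.8, at -1.71 (standard error 0.34, edgeR adjusted p = 0.462) and -1.04 without vehicle replicate 1. With DESeq2 the adjusted p was 0.0125 for Chac1 and 0.00056 for Ddit4, both under 0.05. Asns, asparagine synthetase, had 3.14 and 4.11 CPM against 3.43 and 4.04, at -0.05. Members of this list therefore did not take one direction, and which of them were called changed with the library left out. With one library left out Psat1 ran from 0.63 to 1.02, Stc2 from 0.53 to 0.84 and Ppp1r15a from 0.24 to 1.09. Atf3 ran from 0.74 to 2.21, Chac1 from -1.65 to -0.95 and Ddit4 from -2.16 to -1.04. The interferon gamma response list, examined because of Wars, had a median of -0.13, with 5 of 18 genes above 0, none called higher and Gbp5 called lower at -1.24. Vehicle replicate 2 was the highest library for 12 of the 18 and vehicle replicate 1 the lowest for 10, and Gbp5 was not called without mCDC replicate 2, at -0.83, or without vehicle replicate 2, at -0.69. Gbp5 rested on 1.57 and 0.73 CPM against 1.86 and 3.64. The ends of that list were Cxcl9 at -1.38 and Cxcl10 at 1.24, neither of them called.

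**Figure D4:**
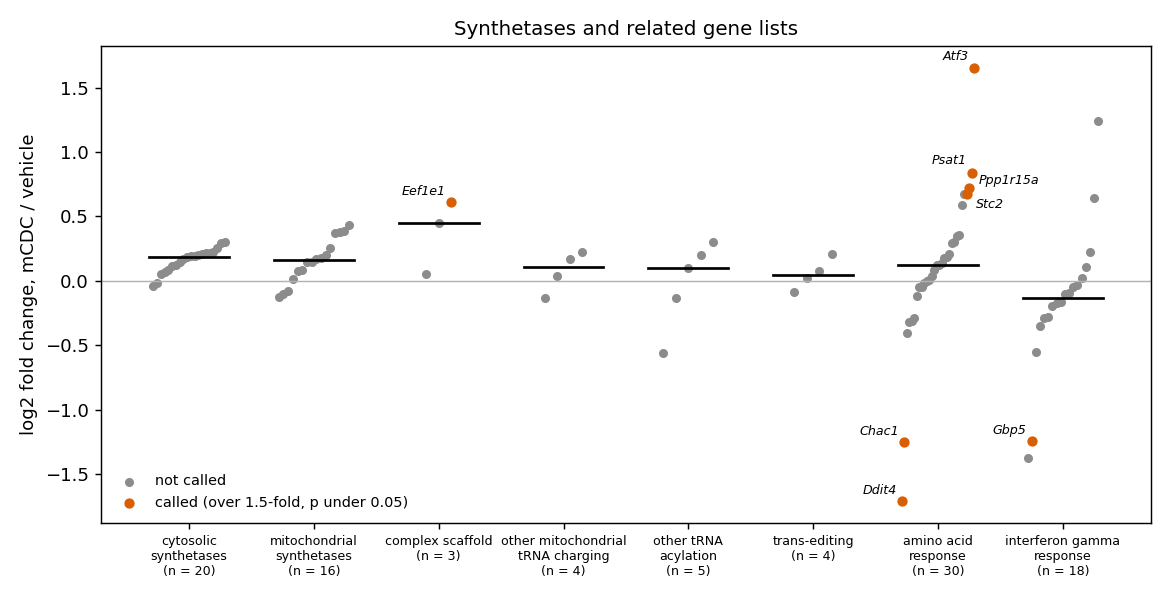
Log2 fold change between mCDC and vehicle muscles (y axis) for the genes of each list (x axis), sorted within the list, with orange for called genes and a black line for the median. The synthetases lie between -0.12 and 0.43 with none called, while the amino acid response genes run from Ddit4 at -1.71 to Atf3 at 1.65.

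Markers of other cells in the muscle also differed between libraries. All 8 fibroblast markers and all 7 endothelial markers had log2 fold changes below 0, with medians of -0.40 and -0.47. Vehicle replicate 2 was the highest library for 8 and 7 of them. Over all genes tested, 7043 of 13652 were below 0, and vehicle replicate 2 was highest for 29.4%. Summed over fibroblast markers, CPM was 381, 340, 350 and 606 in mCDC 1, mCDC 2, vehicle 1 and vehicle 2, and over endothelial markers 135, 106, 109 and 241. Macrophage markers were below 0 in 6 of 9 genes (summed CPM 47.7, 53.9, 40.1 and 69.9), tendon markers in 5 of 6 (166, 218, 227 and 244), and Schwann cell markers in 5 of 6 (62.5, 64.3, 59.5 and 81.0). Adipocyte markers were below 0 in 6 of 6. Their sum (125, 125, 144 and 204) was mostly Fabp4, at 115, 114, 124 and 200 CPM, while for 5 of the 6 vehicle replicate 1 was the highest library and for 5 vehicle replicate 2 the lowest, as for Adipoq at 3.33, 3.33, 5.46 and 1.49. Red cell markers were below 0 in all 5 tested (270, 279, 244 and 454). Of 7 lymphocyte markers only Cd8a was tested, at under 0.6 CPM in every library. The 12 skeletal muscle markers had a median of 0.08, with 10 above 0 and 6 with both mCDC libraries above. Over all genes tested these shares were 48.4% and 19.2%. With libraries scaled to the same sum of counts per kilobase the counts were 5 and 0, beside 28% and 7.29% of all genes. Markers called lower were Pdgfra and Lum of fibroblasts, Csf1r of macrophages, Tnmd, Fmod and Comp of tendon and Hba-a2 of red cells. Those called higher were Cd68 of macrophages and Scx of tendon. Over all genes tested 2.74% were called lower and 1.26% higher. Cd68 overlapped between the groups, at 4.13 and 15.4 CPM against 2.71 and 4.15, with mCDC replicate 2 high. The part of these markers in the shift of the synthetases was not tested.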

How the data were processed

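Total RNA of 4 solei was sequenced as single-end reads. The authors mapped them to a UCSC transcript set with Bowtie 2 (2.1.0 in the submitters' processing notes, which name mm10) and deposited RSEM (1.2.15) expected counts per gene, without normalization; an expected count need not be whole. The methods name the xGen Broad-Range kit and the sample records a stranded kit of another maker, and whether counting used strand is not given in the sources used here. Groups came from the sample titles. Nothing states more than that the 2 muscles of a group are separate samples.

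After rounding, the test was edgeR's (4.0.16, under R 4.3.3) quasi-likelihood test with legacy = FALSE on genes kept by filterByExpr, with TMM scaling and Benjamini-Hochberg adjustment over 13652 genes; standard errors are the absolute log2 fold change over the square root of F, and 95% intervals use the test's degrees of freedom. CPM use TMM (trimmed mean of M-values) library sizes. Members and lists were chosen with earlier results of these data known. Values are given for members with groups that do not overlap, the 4 highest and 4 lowest of each set, and Gars, Kars, Eprs and Wars; from other lists, for called and extreme genes and a fixed few. Transcript lengths and GC came from GENCODE M21 (22750 symbols matched by name, 922 by another name, 382 unmatched), and shared sequence was counted in 31-base words. The procedure was tested on simulated data. Alternatives were DESeq2 1.42.0, the legacy test, RLE size factors, other filters, a replicate block, a fit without the trend on length and GC (mgcv 1.9.3), and leaving out each library. A gene of a related list and a promoter sequence are not reported here.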

Additional observations from a re-analysis of the deposited data

How the results depend on the processing

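The count of members called was 0 under 8 of the 11 alternatives; it was 1 with the length and GC trend removed (Mars2) and between 0 and 2 with one library left out (Ears2, or Mars2 and Nars2). The number of members above 0 was between 30 and 34 under these 11. Set medians kept their sign, from 0.12 to 0.24 (cytosolic) and from 0.11 to 0.21 (mitochondrial) with one library left out. With the length and GC trend removed Eprs was at 0.13, Lars at 0.062 and Iars2 at 0.092, above 0. With one library left out Eprs ran from -0.075 to 0.045, Lars from -0.098 to 0.018, Nars from -0.017 to 0.17, Hars2 from -0.15 to 0.16, Wars2 from -0.42 to 0.11, Aimp1 from -0.0044 to 0.11 and Asns from -0.25 to 0.14; the other 30 members kept their direction under these 11. Libraries were also scaled to the same sum of counts per kilobase, chosen after seeing the data and with no test. On that scale 24 members were above 0, 6 had both mCDC libraries above and 5 had both below. Over all genes these shares were 28%, 7.29% and 33.5%. The set medians were 0.062 (cytosolic) and 0.033 (mitochondrial) beside -0.13 over all genes. Cars (-0.074), Iars (-0.0099), Nars (-0.047), Qars (-0.055), Hars2 (-0.12), Pars2 (-0.052) and Vars2 (-0.039) were below 0. Called genes with one library left out numbered 0 to 2 of the scaffold, 3 to 9 of the amino acid response and 0 to 5 of the interferon list. Tars to Tars2 and Farsa to Fars2 ratios were 1.03 and 1.05 with the longest transcript, an alternative chosen after seeing the data. The correlation of deviations from the group means was -0.039 between mCDC replicate 1 and vehicle replicate 1, and 0.039 with vehicle replicate 2. With 2 libraries in a group these are the same value with opposite sign, which cannot exclude pairing. Replicate numbers are used here only as names. A replicate block called 172 genes higher and 309 lower, 0 members, and 0 interferon genes, losing Gbp5. With leave-one-out fits the lone library of a group is assumed to vary like the others. The cause of these changes was not tested. The standard error was highest for Wars2 (0.26), the member with the fewest counts; groups of 2 are too small for a check of outlying libraries.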
